A study of Mus musculus with 12 samples.

Results

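Cardiomyocytes differentiated in vitro from a Hey1-inducible line of the murine embryonic stem cells CM7/1 were compared with and without induction of Hey1, by RNA-seq. Members were the genes listed in both Hey1-line libraries whose 2 values averaged 1 RPKM or more, and these were 10648 of the 23427 genes in the table. RPKM are reads per kilobase of gene, scaled to library size. Of the other genes, 1269 were listed in both libraries under that mean, 394 were listed in the uninduced library only and 281 in the induced library only. The induced culture had received doxycycline at 1000 ng/ml for 48 h, and the uninduced culture of the same line is the control. Uninduced and induced cultures of a Hey2-inducible line from the same CM7/1 cells, with the same dose and time, are given beside some results. Each of these 4 groups is 1 library, so no difference has a replicate check and none has a p-value. The labels do not say what drives the transgene, whether a line is 1 clone or how many cultures were pooled. No doxycycline-treated culture without an inducible Hey gene was analysed here, so an effect of the drug and one of Hey1 cannot be told apart.

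Hey1 is a basic helix-loop-helix repressor related to the Hes proteins. When a ligand binds a Notch receptor, the freed intracellular domain joins the DNA-binding protein Rbpj and switches on Hes and Hey genes, whose products bind E-box-like DNA and recruit corepressors. In the developing heart Hey1 marks the atrial myocardium and Hey2 the ventricular myocardium, and both hold back the gene programme of the atrioventricular canal.

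The uninduced and induced Hey1-line libraries held 3163104 and 3154411 reads in listed genes, recovered from the steps of the RPKM values. A listed gene had 99 reads (median) without induction and 95 with it. The 10 most abundant genes took 11.5% of these reads without induction and 12.8% with it. All 18 cardiomyocyte markers were listed in both libraries, with a summed level of 27881 RPKM uninduced and 28380 RPKM induced. The same 18 markers in the Hey2 line summed to 1525 and 1578 RPKM, far below the Hey1 line in both libraries. Blood markers (Hbb-bh1, Hba-x, Gata1 and Ptprc) were listed in no library. In bulk RNA, fewer cells of a type and less RNA per cell cannot be told apart, which holds for every level and difference that follows.

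The induced gene and its family come first. Hey1 stood at 0.735 RPKM in the uninduced library and at 8.59 RPKM in the induced library, 11.7-fold higher (6.48 to 23.1). Intervals after a fold are exact 95% intervals of counting error for the ratio of 2 libraries, and cover no difference between cultures. The uninduced level rests on 12 reads, near the lower limit of 10 reads assumed for a listed gene in this line. The level of 8.59 RPKM rests on 142 reads and was a small part of the transcriptome, below Hes1 at 8.82 and Hes6 at 19.7 RPKM in the same library. Hes1, the most widespread Notch target of the family, was at 9.69 RPKM without induction, a ratio of 0.911 (0.683 to 1.21). Hes6, which counters Hes1 in differentiating cells, was at 21.7 RPKM without induction, a ratio of 0.908 (0.745 to 1.11). Neither interval left out 1. Bhlhb2, now named Bhlhe40, is a related repressor of the clock and of hypoxia, and stood (on the hypoxia list as well) at 14 RPKM uninduced and 9.89 RPKM induced, 1.42-fold lower (1.19 to 1.69). Its partner Bhlhb3 (Bhlhe41) had 1.21 and 0.952 RPKM, within counting error. Hey2 lay under the mean of 1 RPKM, at 0.694 and 0.895 RPKM. The remaining 6 family genes, Heyl among them, had no listed value in either library.

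The Notch pathway upstream of Hey1 differed little. Of 22 members among receptors, processing enzymes and the nuclear complex, 12 were higher and 10 lower (all members: 39.1% higher). Their median difference was 0.03 in log2(RPKM + 1), where the median of all members was −0.06. Maml1, the coactivator that joins Rbpj and the Notch domain, was at 4.43 and 5.67 RPKM, 1.28-fold higher (1.05 to 1.56), and Spen, a corepressor of the same complex, at 2.60 and 3.17 RPKM, 1.22-fold higher (1.02 to 1.45). The ubiquitin ligase gene Mib1, which lets ligands signal, was at 6.31 and 4.85 RPKM, 1.30-fold lower (1.03 to 1.64). These 3 of the 22 were the members whose interval left out 1, 2 above and 1 below (all members: 5.13% and 13.7%). Among 3 listed ligands only Jag1 had such an interval, below 1 (all members: 13.7%). Jag1 was at 1.43 and 0.825 RPKM, 1.73-fold lower (1.11 to 2.72). All 13 corepressor genes on the list were members. The histone deacetylase gene Hdac2 was at 19 and 14 RPKM, 1.36-fold lower (1.13 to 1.64), and the nuclear corepressor gene Ncor1 at 10.8 and 12.2 RPKM, 1.14-fold higher (1.04 to 1.24). Corepressor levels thus lay on both sides, 7 higher and 6 lower (all members: 39.1% higher).

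Across all members, small differences toward lower values in the induced library outnumbered those toward higher values. Of 10648 members, 6483 (60.9%) were lower and 4164 (39.1%) higher. The middle of the distribution lay between −0.21 (25th percentile) and 0.08 (75th percentile) on the log2(RPKM + 1) scale. A size of at least 1.5-fold on this scale was reached by 226 members lower (2.12%) and 55 higher (0.517%). The balance depends on scaling: 50% of members were lower when the 2 libraries were scaled to a median ratio of 1, and 51.4% with upper quartile scaling. At 1.5-fold, 164 were lower and 79 higher with median ratio scaling, and 167 and 75 with upper quartile scaling. These scalings shifted all differences by 0.07 and 0.06 on the log2 scale. Of the 226 lower members, 172 had 196 promoters in the sequence table, and their motif content is given with the hypoxia genes.

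How much of this spread is counting can be read from the depth of the genes. Among 3639 members with 60 to under 200 reads in both libraries together, the standard deviation of the log2 ratio was 0.35, where counting alone gives 0.28. Among 419 members with at least 2000 reads it was 0.16, where counting gives 0.05. Well-covered genes thus differed by more than counting error, but for 1 library a side this spread also holds whatever separates any 2 cultures. The interval of the ratio lay wholly below 1 for 1459 members (13.7%) and wholly above 1 for 546 (5.13%). Among the 419 members with at least 2000 reads these shares were 27.0% and 26.7%, so they depend on depth.

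**Figure D1:**
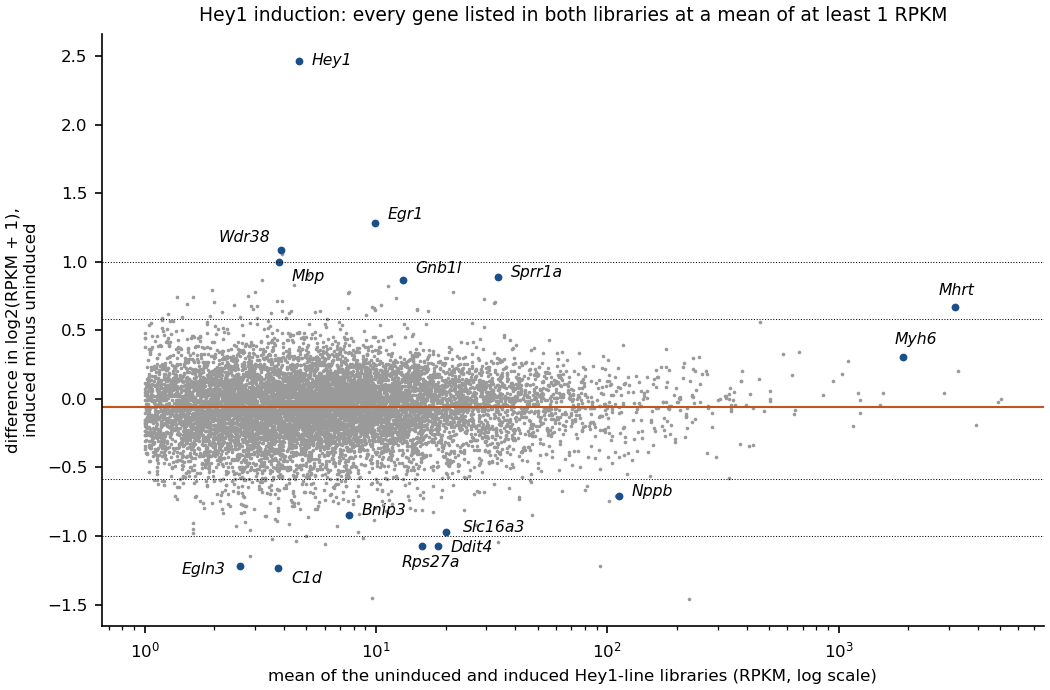
Difference in log2(RPKM + 1), induced minus uninduced, against the mean level in RPKM (log axis) for all 10648 members, 1 point a gene. The orange line is the median of −0.06, dotted lines mark 1.5-fold and 2-fold, and blue points are named genes. Hey1 stands alone at 2.47, and Egln3, Ddit4, Bnip3 and Slc16a3 are among the labelled genes below the line.

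By the same measure, 4 members were higher by at least 2-fold (0.0376%) and 13 lower (0.122%). The higher ones were Hey1, Egr1, Wdr38 and the histone gene Hist1h2bg. Egr1, an immediate early zinc finger transcription factor, had 122 reads and 5.37 RPKM uninduced and 334 reads and 14.5 RPKM induced, 2.70-fold higher (2.19 to 3.35). Wdr38, a WD-repeat gene, stood at 2.13 and 5.64 RPKM, and Hist1h2bg at 2.2 and 5.64 RPKM from only 10 and 26 reads. Just under this size came Mbp, the myelin basic protein gene, at 2.2 and 5.38 RPKM. A ribosomal pseudogene, Rpl21-ps8, overlaps Mbp in the reference table and the ribosomal gene Rpl35 overlaps Wdr38, and how shared reads were assigned is not given. Below Mbp in size was Gnb1l, a WD-repeat gene, at 8.92 and 17.1 RPKM (1.92-fold higher, 1.64 to 2.25). Sprr1a, a gene of the cornified envelope that stressed cardiomyocytes also express, was at 23.4 and 44.2 RPKM (1.89-fold higher, 1.53 to 2.34). Both had more than 100 reads in each library, as did Egr1 and Mbp.

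Lower by at least 2-fold were C1d, Egln3, Rps27a, Ddit4, Gins1, Hddc2, Cyp3a13 and Timm9, and 5 genes outside the naming rule that are given here after their values were seen. Those 5 are 4930481A15Rik, C630035N08Rik and the microRNA genes Mir5114, Mir682 and Mir1903, whose recovered lengths of 61, 96 and 80 bases make RPKM from few reads large. Of these, 4930481A15Rik had the most reads, 255 uninduced and 83 induced, at 14.5 and 4.66 RPKM. C1d, a cofactor of the nuclear exosome that trims RNA, had 125 and 41 reads, at 5.71 and 1.85 RPKM, 3.09-fold lower (2.16 to 4.51). Esf1, a nucleolar gene of ribosome assembly, was close to it in kind, at 4.06 and 1.61 RPKM, 2.52-fold lower (1.74 to 3.72). Timm9, a carrier of proteins into the inner mitochondrial membrane, was at 12.1 and 5.49 RPKM, 2.2-fold lower (1.54 to 3.20), and Vbp1, a prefoldin chaperone subunit, at 11.4 and 5.33 RPKM, 2.14-fold lower (1.58 to 2.93). The liver-type genes Cyp3a13, a cytochrome P450, and Ahsg, a plasma protein, were at 5.08 and 1.99 RPKM and at 2.47 and 0.763 RPKM. Ahsg rests on 32 and 10 reads, the latter at the assumed lower limit. Beside these liver-type genes, 4 of 8 endoderm markers were listed in each Hey1-line library. Their summed level was 72.2 RPKM uninduced and 50.7 RPKM induced. The listed genes differ, since Apoa2 (2.85 RPKM) was listed uninduced only and Foxa2 (0.815 RPKM) induced only. Apoa1, Sox17 and Hnf4a of that marker list were blank in both, and the part of these cells in the result was not tested.

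Genes of the hypoxia response were the most evenly lower of the pathway lists with at least 10 members. The lists were chosen with earlier results of these data known, so this rank is a description of the lists chosen. When oxygen is short, the factor HIF escapes destruction and binds an RCGTG core in DNA to switch on genes for glycolysis, blood vessel growth and mitochondrial removal. Of 24 members on the list, 23 were lower and 1 higher (all members: 60.9% lower), with a median difference of −0.30. The interval lay below 1 for 14 of the 24 (all members: 13.7%). With median ratio scaling 22 were lower and the median was −0.23. In the Hey2 line, 13 of the same 24 were higher and 11 lower after induction (all members: 49.3% and 50.7%), with a median of 0.01.

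The 4 hypoxia members with the largest lower differences are shown with the 250 bases before their start sites, from RefSeq on GRCm38.p6, since a HIF core is one feature that a shared promoter sequence could hold. All are written along the gene's strand, and capitals mark ACGTG, 1 of the 2 forms of the core, on either strand (CACGT when read on the strand shown). The windows are chr12:54203875-54204124 on the minus strand for Egln3, chr10:59951771-59952020 on the minus strand for Ddit4, chr7:138909507-138909756 on the minus strand for Bnip3 and chr7:110627407-110627656 on the plus strand for Adm.
Egln3: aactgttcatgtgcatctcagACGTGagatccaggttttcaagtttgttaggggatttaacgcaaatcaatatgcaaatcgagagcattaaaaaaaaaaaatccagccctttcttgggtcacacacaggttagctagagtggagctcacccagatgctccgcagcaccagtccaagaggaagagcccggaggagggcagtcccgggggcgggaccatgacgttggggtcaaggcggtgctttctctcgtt
Ddit4: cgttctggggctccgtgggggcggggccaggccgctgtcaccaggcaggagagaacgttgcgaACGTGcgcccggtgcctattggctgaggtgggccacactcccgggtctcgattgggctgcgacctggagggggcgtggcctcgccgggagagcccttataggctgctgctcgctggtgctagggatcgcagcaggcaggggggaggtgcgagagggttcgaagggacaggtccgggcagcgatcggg
Bnip3: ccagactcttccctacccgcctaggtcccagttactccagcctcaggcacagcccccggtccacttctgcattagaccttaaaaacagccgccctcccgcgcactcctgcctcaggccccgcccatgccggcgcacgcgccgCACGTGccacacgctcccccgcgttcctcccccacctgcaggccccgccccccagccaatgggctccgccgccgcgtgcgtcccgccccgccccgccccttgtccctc
Adm: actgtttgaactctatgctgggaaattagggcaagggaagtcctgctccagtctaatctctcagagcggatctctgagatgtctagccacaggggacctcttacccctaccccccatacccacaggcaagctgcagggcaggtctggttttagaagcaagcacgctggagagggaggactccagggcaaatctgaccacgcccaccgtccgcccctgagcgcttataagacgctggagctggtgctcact

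Egln3 and Ddit4 each held 1 match to ACGTG, the match of Bnip3 is the palindrome CACGTG, and Adm held none in this window. The other form of the core, GCGTG on either strand, is not in capitals and was found in the windows of Ddit4 (1 match), Bnip3 (3) and Adm (2) and not in that of Egln3. Over the list, 16 of 26 promoters (61.5%) held ACGTG on either strand, where 2426 of 10861 promoters of all members (22.3%) did. GCGTG was in 15 of the 26 (57.7%) and in 46.1% of all members' promoters. Promoters were in the table for 19 of the 24 members, and 14 of these had ACGTG in at least 1 promoter. The list was drawn up from known HIF targets, so this share describes the list and not the induction. The median GC content of the 26 promoters was 66.4%, against 60.4% over all members' promoters.

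The same search was made for E-box-like motifs that Hey proteins bind. CACGTG was found in 8.52% of the promoters of all members, in 7.65% of the 196 promoters of members at least 1.5-fold lower and in 6.98% of the 43 promoters of members at least 1.5-fold higher. CACGCG, read on both strands, was in 14.6%, 13.3% and 11.6% of the same sets. ACGTG, which CACGTG contains, was in 21.4% of the promoters of the lower members. For each of the 3 motifs this share lay slightly under that of all members. In the wider set of 1357 members (12.7%) with a difference of −0.32 or lower in log2(RPKM + 1), which had 1294 promoters, it lay slightly above, at 9.43% for CACGTG, 15.7% for CACGCG and 24.4% for ACGTG. Of 10648 members, 8491 had a promoter in the table.

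Among the hypoxia genes the oxygen sensor came first. Egln3, a prolyl hydroxylase that marks HIF for destruction and is itself a HIF target, had 79 reads and 3.99 RPKM uninduced and 23 reads and 1.15 RPKM induced, 3.48-fold lower (2.16 to 5.81). Its relative Egln1 was at 24.3 and 20.2 RPKM, 1.21-fold lower. Ddit4, an inhibitor of mTORC1, was at 25.6 and 11.6 RPKM, 2.2-fold lower (1.80 to 2.69). Bnip3, a receptor that sends mitochondria to autophagy, was at 10.1 and 5.16 RPKM, 1.95-fold lower (1.45 to 2.66), while its paralogue Bnip3l was at 5.97 and 5.68 RPKM, within counting error. The vasodilator peptide gene Adm was at 12.2 and 7.82 RPKM, 1.56-fold lower (1.17 to 2.09). Paralogues differed in size, with intervals that did not overlap for Egln3 and Egln1 (ratios of 0.172 to 0.462 and of 0.738 to 0.932) or for Bnip3 and Bnip3l (0.376 to 0.692 and 0.748 to 1.21).

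Further down the list, 2310056P07Rik (Fam162a), a mitochondrial protein gene, was the most abundant lower member at 73.0 and 50.6 RPKM, 1.44-fold lower (1.22 to 1.71). Pfkfb3, which makes the activator of phosphofructokinase, was at 3.22 and 1.97 RPKM, 1.64-fold lower (1.22 to 2.2). Other members named after their values were seen, the growth factor gene Vegfa, the glucose transporter gene Slc2a1 and the kinase gene Pdk1, were at 21.2 and 17.0, at 56.8 and 45.3 and at 13.3 and 9.60 RPKM. All 3 intervals lay below 1. The genes of HIF itself were close to level, with Hif1a at 30.2 and 27.8 RPKM and Epas1 at 1.16 and 1.10 RPKM. Hmox1, the haem-degrading enzyme that oxidative stress also induces, was the member above, at 55.0 and 67.5 RPKM, 1.23-fold higher (1.10 to 1.36).

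**Figure D2:**
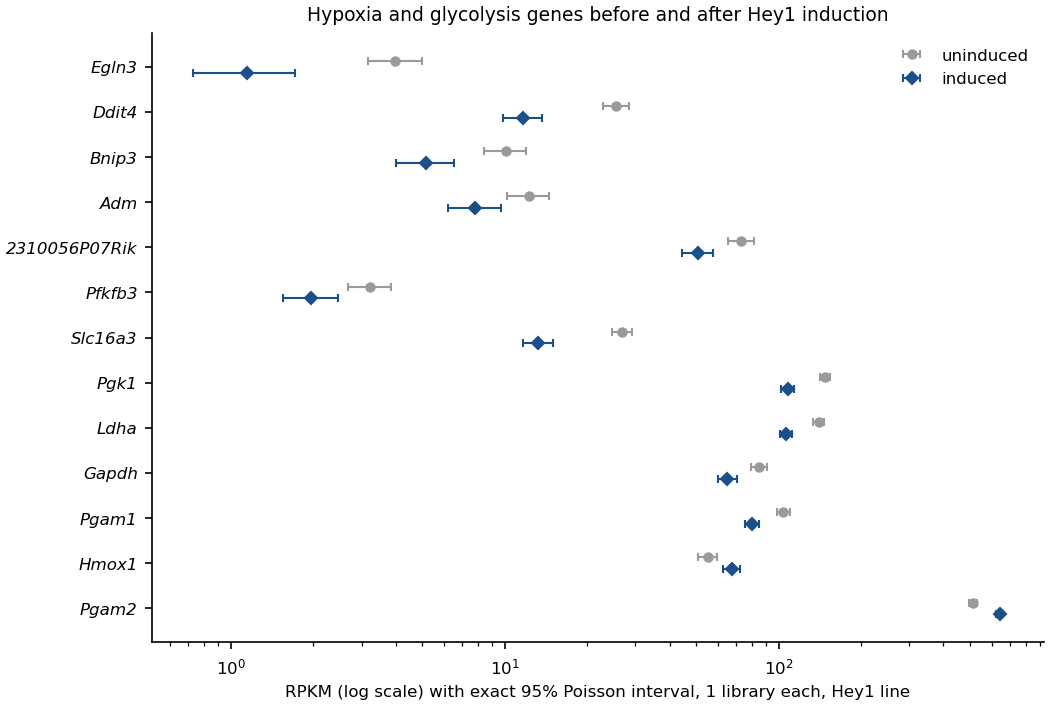
RPKM (log axis) of hypoxia and glycolysis genes in the uninduced (grey circles) and induced (blue diamonds) Hey1-line libraries, 1 library each, with exact 95% Poisson intervals. From Egln3 down to Pgam1 the induced library is lower, and Hmox1 and Pgam2 are the 2 genes with a higher induced level.

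Most glycolysis genes were lower. Of 19 members 14 were lower and 5 higher (all members: 60.9% lower), with a median of −0.15 (all members −0.06). The interval lay below 1 for 10 and above 1 for 3 (all members: 13.7% and 5.13%). Among members with at least 2000 reads, such as Pgk1, Ldha and Pgam2, these shares were 27.0% and 26.7%. Slc16a3, the lactate exporter Mct4, was at 26.8 and 13.2 RPKM, 2.03-fold lower (1.74 to 2.36). Pgk1, phosphoglycerate kinase, was at 147.6 and 107.9 RPKM, 1.37-fold lower (1.28 to 1.46), and Ldha, the lactate dehydrogenase subunit that favours lactate, at 140.0 and 106.1 RPKM, 1.32-fold lower (1.23 to 1.41). Pgam1, the widespread phosphoglycerate mutase, was at 104.2 and 80.3 RPKM, 1.30-fold lower (1.2 to 1.41). The muscle isoform Pgam2 went the other way, at 512.5 and 642.2 RPKM, 1.253-fold higher (1.198 to 1.31). So did the heart-type lactate dehydrogenase subunit Ldhb, at 103.0 and 120.6 RPKM, 1.17-fold higher (1.08 to 1.28). The widespread enolase Eno1 was at 85.8 and 74.5 RPKM, 1.15-fold lower, and the muscle enolase Eno3 at 239.7 and 234.3 RPKM, within counting error. Ldhb, Eno1 and Eno3 are named after their values were seen. Gapdh, at 84.9 and 65.0 RPKM, has many pseudogene copies and is uncertain.

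Mitochondrial fuel genes had no common direction. In the respiratory chain, 20 of 27 nuclear-encoded members were lower (all members: 60.9%), but the median of −0.06 was that of all members, and with median ratio scaling it was 0.01. Single subunits stood out: Ndufv2 of complex I was at 56.6 and 36.8 RPKM, 1.54-fold lower (1.36 to 1.74), and Uqcrfs1, the iron-sulphur subunit of complex III, at 101.4 and 75 RPKM, 1.35-fold lower (1.23 to 1.49). The electron carrier Cycs was at 8.17 and 5.62 RPKM, 1.45-fold lower (1.15 to 1.83). Uqcrc1, also of complex III, was at 150.6 and 166.4 RPKM, 1.10-fold higher (1.04 to 1.18), so subunits of 1 complex were found on both sides. In fatty acid oxidation, 12 of 21 members were lower and 9 higher (all members: 60.9% lower). The median of −0.01 turned to 0.05 with median ratio scaling. The interval lay below 1 for 4 of the 21 and above 1 for 2 (all members: 13.7% and 5.13%). Among members with 600 to under 2000 reads these shares were 21.0% and 10.3%. The 4 members with an interval below 1 are enzymes of beta-oxidation: Echs1 was at 32.8 and 23.2 RPKM (1.42-fold, 1.2 to 1.67), Hadhb at 26.6 and 18.8 RPKM (1.41-fold, 1.21 to 1.65), Hadh at 33.5 and 25.7 RPKM (1.30-fold, 1.13 to 1.51) and Acaa2 at 52.7 and 41.8 RPKM (1.26-fold, 1.12 to 1.43). The dehydrogenase Acadl of the same pathway was at 142.1 and 137.0 RPKM, within counting error. Cpt1a, the gate through which fatty acids enter mitochondria, was at 3.58 and 4.68 RPKM, 1.31-fold higher (1.02 to 1.68), and the nuclear receptor gene Esrrg at 7.94 and 9.70 RPKM, 1.22-fold higher (1.05 to 1.42).

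Most mitosis genes were lower in the induced library. The mitosis list had 28 members, of which 25 were lower and 3 higher (all members: 60.9% lower). Their median difference was −0.30 and their uninduced level 0.987 to 12.3 RPKM. The interval lay below 1 for 8 of them and above 1 for none (all members: 13.7% and 5.13%). Cyclin B2 (Ccnb2) was at 4.65 and 2.34 RPKM, 1.99-fold lower (1.23 to 3.29), and its kinase Cdc2a (Cdk1) at 3.17 and 1.96 RPKM, 1.62-fold lower (1.08 to 2.44). Top2a, which untangles chromosomes before division, had the most reads of the list's named members, 272 and 182, at 7.05 and 4.65 RPKM, 1.51-fold lower (1.251 to 1.84). Bub1b of the spindle checkpoint was at 2.21 and 1.31 RPKM, 1.69-fold lower (1.10 to 2.63). In the Hey2 line Top2a stood at 86.3 and 91.0 RPKM. The mitosis list there had a median of 0.01, with 16 members higher and 12 lower (all members: 49.3% and 50.7%).

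Of 29 replication members 24 were lower and 5 higher (all members: 60.9% lower), with a median of −0.18. The interval lay below 1 for 4 of them, a share like that of all members (13.7%). The Hey2 line gave a median of −0.16, with 23 lower (all members: 50.7%). The GINS subunit Gins1, which opens DNA together with the Mcm ring, was at 8.47 and 3.55 RPKM, 2.38-fold lower (1.58 to 3.67), and the clamp loader subunits Rfc3 and Rfc4 were at 5.67 and 2.96 RPKM and at 2.89 and 1.43 RPKM. The clamp itself, Pcna, was at 13.6 and 15.1 RPKM, within counting error, and the polymerase gene Pold1 at 2.21 and 3.19 RPKM, 1.44-fold higher (1.02 to 2.07). Among 20 G1 regulators 15 were lower (all members: 60.9%) and 6 intervals lay below 1 (all members: 13.7%), with a median of −0.21. E2f1, the transcription factor that starts S phase, was at 4.07 and 2.33 RPKM, 1.74-fold lower (1.18 to 2.60), and so was its inhibitor Rb1, at 2.78 and 1.82 RPKM, 1.53-fold lower (1.10 to 2.14). Cdk4 was at 37.3 and 27.8 RPKM, 1.34-fold lower (1.15 to 1.57), and the CDK inhibitor Cdkn1a, the most abundant of the list, at 127.3 and 132.0 RPKM, within counting error.

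Markers of pluripotent cells, which cycle fast, were lower beside these genes. All 5 were listed in both Hey1-line libraries and summed to 27.8 RPKM uninduced and 20.9 RPKM induced, with none blank. Sox2 was at 4.02 and 2.23 RPKM, 1.80-fold lower (1.21 to 2.71), Zfp42 at 7.8 and 4.89 RPKM, 1.60-fold lower (1.16 to 2.21), and Pou5f1 at 9.93 and 8.87 RPKM, within counting error. Of the 15 members of the longer pluripotency list 12 were lower (all members: 60.9%), with a median of −0.14, and Sox2 and Zfp42 were the 2 with an interval below 1, a share like that of all members (13.7%). In the Hey2 line, where the 5 markers summed to 208.0 and 211.5 RPKM, 13 of the 15 were higher (all members: 49.3%). The part of such cells in the cell cycle result was not tested.

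Natriuretic peptide and chamber genes were mostly lower in the induced library. Nppb, the B-type natriuretic peptide, had 810 reads and 140.3 RPKM uninduced and 500 reads and 85.5 RPKM induced, 1.64-fold lower (1.47 to 1.84). Nppa, the atrial natriuretic peptide, was at 419.1 and 332.6 RPKM, 1.26-fold lower (1.19 to 1.34). From the sarcomere list, Acta1, the skeletal actin of fetal heart, was at 9.20 and 6.11 RPKM, 1.51-fold lower (1.11 to 2.06), while cardiac actin, Actc1, was level at 5041 and 5040 RPKM. Ankrd1, a stretch-responsive protein on the transcription factor list, was at 1231 and 1071 RPKM, 1.15-fold lower (1.12 to 1.18). Of the 11 natriuretic and chamber members 10 were lower (all members: 60.9%), with a median of −0.10. Bmp10 was the other, at 1.64 and 1.82 RPKM. The interval lay below 1 for 6 of the 11 (all members: 13.7%, members with at least 2000 reads: 27.0%). With median ratio scaling the median of this list was −0.05 and 8 were lower. Nppb in the Hey2 line was at 7.8 and 10.1 RPKM, within counting error.

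Calcium handling genes were lower for 10 of 15, near the share of all members (60.9%), and for 8 of 15 with median ratio scaling. Trdn, triadin of the calcium release unit, was at 24.4 and 17.3 RPKM, 1.41-fold lower (1.26 to 1.57), and Pln, phospholamban, the brake on the calcium pump, at 146.6 and 123.7 RPKM, 1.18-fold lower (1.12 to 1.253). The pump Atp2a2 was at 667.5 and 616.9 RPKM, 1.08-fold lower (1.07 to 1.10). Hrc, a calcium-binding protein of the same store that binds triadin, was at 33.6 and 43.5 RPKM, 1.30-fold higher (1.16 to 1.44). It was the list's 1 member with an interval above 1 (all members: 5.13%), against 8 below (all members: 13.7%). Among members with at least 2000 reads these shares were 26.7% and 27.0%. Of ion channel and connexin members 8 were higher and 6 lower (all members: 39.1% higher). The connexin Gja1 was at 95.5 and 101.9 RPKM, 1.07-fold higher (1.01 to 1.13).

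Sarcomere genes were slightly higher on balance. Of 30 members 20 were higher and 10 lower (all members: 39.1% higher), with a median of 0.05. The interval lay above 1 for 15 and below 1 for 8 (all members: 5.13% and 13.7%), and the deep coverage of these genes makes small differences visible. Myom2, an M-band protein of fast and adult muscle, was at 32.2 and 43.8 RPKM, 1.36-fold higher (1.26 to 1.47). Tnni3, the cardiac troponin I of mature heart, was at 597.1 and 757.8 RPKM, 1.27-fold higher (1.21 to 1.33), and Tnnt2 at 3054 and 3524 RPKM, 1.15-fold higher (1.14 to 1.17). The atrial light chain Myl7 was at 4191 and 3680 RPKM, 1.14-fold lower (1.12 to 1.16), and the other light chains lay close to level, with the ventricular Myl2 at 2818 and 2896 RPKM and Myl4 at 4940 and 4861 RPKM. The light chains that mark atrium and ventricle were thus within 1.14-fold of their uninduced levels. In the Hey2 line 23 of the 30 sarcomere members were higher (all members: 49.3%), with a median of 0.06.

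The myosin heavy chain locus held the largest difference among the most abundant genes. Mhrt, a noncoding RNA transcribed from within the Myh6 and Myh7 locus against Myh7, had 15063 reads and 2458 RPKM uninduced and 24262 reads and 3907 RPKM induced, 1.59-fold higher (1.56 to 1.62). The coding neighbours were higher by less, Myh6 at 1704 and 2106 RPKM (1.24-fold, 1.22 to 1.248) and Myh7 at 997.4 and 1210 RPKM (1.21-fold, 1.2 to 1.23). In the Hey2 line Myh6 and Myh7 were higher too, 1.15-fold and 1.24-fold, while Mhrt was at 163 and 168 RPKM, a ratio of 1.03 (0.941 to 1.12). Mhrt overlaps Myh7 in the reference table, and the handling of strand is not given in the sources used here, so reads of the 2 genes cannot be told apart. The file lists the gene by an Ensembl identifier, and its name was taken from the reference by Entrez number. The embryonic heavy chain gene Myh3, at 1.83 and 3.76 RPKM, was 2.06-fold higher (1.57 to 2.72).

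**Figure D3:**
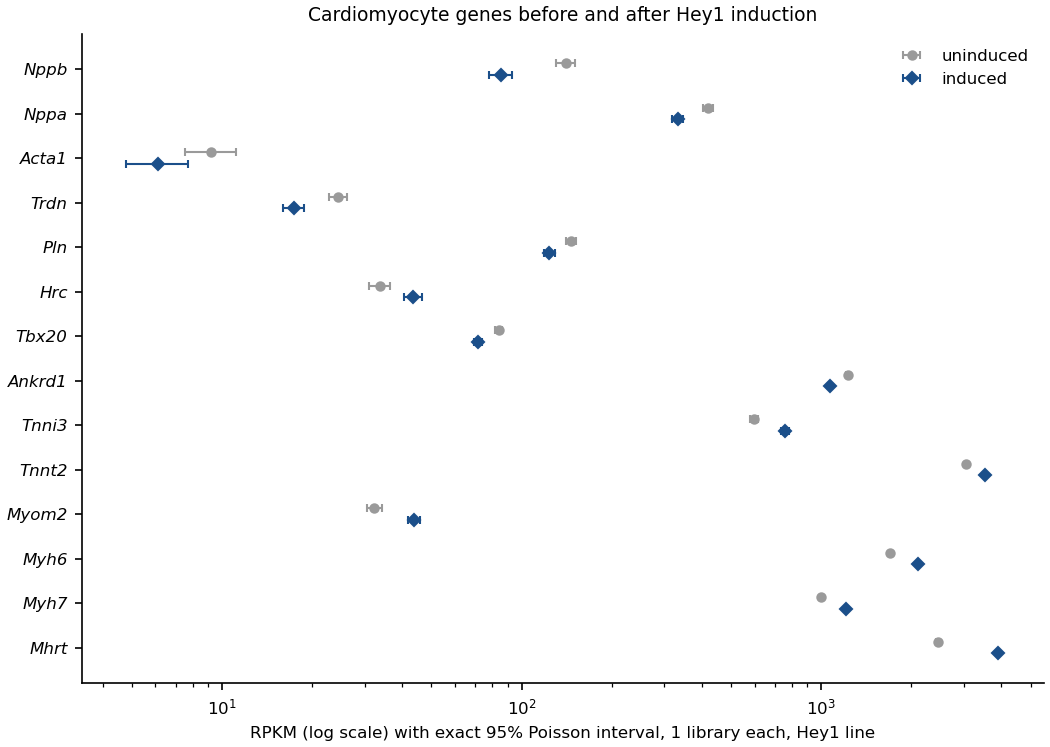
RPKM (log axis) of cardiomyocyte genes in the uninduced (grey circles) and induced (blue diamonds) Hey1-line libraries, 1 library each, with exact 95% Poisson intervals, which are narrower than the symbols for abundant genes. Nppb, Nppa, Acta1, Trdn, Pln, Tbx20 and Ankrd1 are lower and Hrc, Tnni3, Tnnt2, Myom2, Myh6, Myh7 and Mhrt higher with induction.

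Of 23 cardiac transcription factor members 15 were higher and 8 lower (all members: 39.1% higher), with a median of 0.03. Tbx2, a repressor of the atrioventricular canal whose gene is a known target of Hey factors, was at 9.29 and 11.5 RPKM, 1.24-fold higher (1.04 to 1.47). Srf, which drives sarcomere and immediate early genes, was at 17.7 and 21.4 RPKM, 1.21-fold higher (1.08 to 1.36). Tbx20 was at 83.8 and 71.4 RPKM, 1.17-fold lower (1.12 to 1.23). The paralogues Mef2d and Mef2a went apart, Mef2d at 23.5 and 27.0 RPKM (1.15-fold higher, 1.01 to 1.31) and Mef2a at 33.9 and 29.5 RPKM (1.15-fold lower, 1.03 to 1.28). None of the 23 reached 1.5-fold.

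Immediate early genes, which answer growth and stretch signals within minutes, were higher on balance. Of 24 members 15 were higher and 9 lower (all members: 39.1% higher), with a median of 0.10 that became 0.16 with median ratio scaling. The interval lay above 1 for 6 and below 1 for 2 (all members: 5.13% and 13.7%). Apart from Egr1, Fos had 12 reads and 0.775 RPKM uninduced and 31 reads and 1.97 RPKM induced, 2.55-fold higher (1.27 to 5.45). Zfp36, which speeds the decay of cytokine mRNAs, was at 6.05 and 8.84 RPKM, 1.46-fold higher (1.09 to 1.97), and Ier2 at 8.08 and 11.4 RPKM, 1.41-fold higher (1.07 to 1.86). The Srf and Yap targets Ctgf (217.2 and 237.3 RPKM) and Cyr61 (46.8 and 52.7 RPKM) were 1.09-fold (1.05 to 1.14) and 1.13-fold (1.02 to 1.248) higher. Fosl1 went the other way, at 1.90 and 0.860 RPKM, 2.21-fold lower (1.04 to 5.0). It rests on 24 and 11 reads, the latter near the assumed lower limit of 10 reads. Jund was lower too, at 36.2 and 31.7 RPKM. Members of the same Fos and Jun families were thus found on both sides. In the Hey2 line, too, 15 of the 24 members were higher and 9 lower (all members: 49.3% higher), with a median of 0.05.

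**Figure D4:**
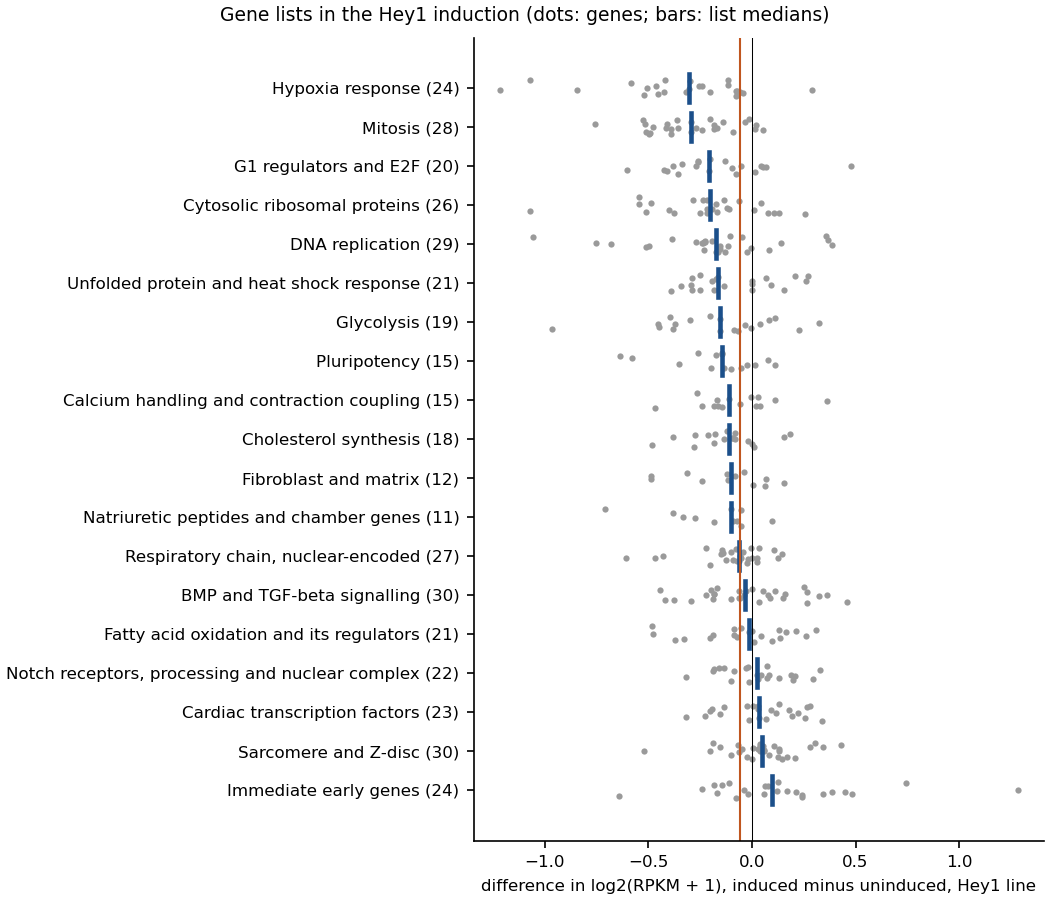
Difference in log2(RPKM + 1), induced minus uninduced, for the members of 19 gene lists (numbers of members in brackets). Grey points are genes, blue bars list medians, the orange line the median of all 10648 members and the black line 0. Of the 19 lists shown, out of 39, hypoxia and mitosis lie lowest, at a median of −0.30 each, and immediate early genes highest, at 0.10. Among lists not shown, primitive streak and mesoderm (2 members) had a median of −0.40 and skeletal muscle (6 members) one of 0.14.

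Signalling lists held opposed members. In BMP and TGF-beta signalling 17 of 30 were lower (all members: 60.9%), with a median of −0.04 that turned to 0.02 with median ratio scaling. Id2, an inhibitor of differentiation factors, was at 18.4 and 23.9 RPKM, 1.30-fold higher (1.06 to 1.59), and Smad6, a feedback inhibitor of BMP signals, at 12.1 and 14.8 RPKM, 1.22-fold higher (1.04 to 1.44). Skil, a Smad corepressor, was at 2.95 and 1.90 RPKM, 1.55-fold lower (1.23 to 1.97). In the Wnt list Ctnnb1, beta-catenin, was the 1 of 12 members with an interval off 1 (all members: 13.7% below and 5.13% above). Ctnnb1 was at 84.5 and 71.5 RPKM, 1.18-fold lower (1.11 to 1.26).

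In the integrated stress response, 10 of 19 members were lower and 9 higher (all members: 60.9% lower), with a median of 0.00. The factors Atf4, at 72.3 and 85.1 RPKM (1.18-fold, 1.08 to 1.29), and Atf5, at 40.8 and 52.6 RPKM (1.29-fold, 1.16 to 1.43), were higher. Among enzymes these factors are known to induce, 2 were lower, Mthfd2 of mitochondrial folate use at 58.6 and 46.5 RPKM (1.26-fold, 1.14 to 1.39) and Psph of serine synthesis at 11.4 and 8.50 RPKM (1.34-fold, 1.03 to 1.77). Chaperones also parted: mitochondrial Hspd1 was at 38.7 and 29.2 RPKM (1.32-fold lower, 1.18 to 1.49), while cytosolic Hspa1a was at 30.3 and 36.5 RPKM (1.2-fold higher, 1.08 to 1.34) and Bag3 at 40.3 and 48.8 RPKM (1.21-fold higher, 1.10 to 1.34).

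Markers of other cell types were low beside those of cardiomyocytes. Endoderm-type genes were led by Afp, alpha-fetoprotein, at 58.5 and 42.0 RPKM, 1.39-fold lower (1.26 to 1.54), with Alb at 7.61 and 5.48 RPKM, 1.39-fold lower (1.04 to 1.86). Fibroblast and matrix markers summed to 43.3 and 37.4 RPKM, with 6 of 7 listed in each library and Lum blank in both. Col1a2 was at 3.39 and 2.13 RPKM, 1.59-fold lower (1.2 to 2.13), and Postn, a matrix protein of valves and scars, at 6.48 and 4.33 RPKM, 1.5-fold lower (1.16 to 1.93). On the longer fibroblast list 8 of 12 were lower in the Hey1 line, near the share of all members (60.9%), and 12 of 12 were higher in the Hey2 line (all members: 49.3%). In the Hey1 line 4 of the 12 intervals of that list lay below 1 and 1 above (all members: 13.7% and 5.13%). The 1 above was Vim, at 116.4 and 129.8 RPKM, 1.12-fold higher (1.04 to 1.19). Among members with at least 2000 reads, as Vim has, 26.7% lay above 1 and 27.0% below. Sparc, the most abundant of that list, was level at 326.9 and 327.7 RPKM. Smooth muscle markers summed to 337.4 and 365.0 RPKM, mostly Acta2 at 217.0 and 253.2 RPKM, which immature cardiomyocytes also express. Tagln went the other way, at 71.1 and 60.7 RPKM, 1.17-fold lower (1.06 to 1.30). The keratin gene Krt19 was at 5.81 and 2.62 RPKM, 2.21-fold lower (1.38 to 3.63). Krt18, at 13.7 and 11.5 RPKM, and Krt8, at 4.19 and 4.28 RPKM, were within counting error.

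Cytosolic ribosomal protein genes were mostly lower, 20 of 26 (all members: 60.9%), with a median of −0.20 (−0.13 with median ratio scaling). The interval lay below 1 for 14 (all members: 13.7%, members with 600 to under 2000 reads: 21.0%). Rps27a, which encodes a fusion with ubiquitin, was at 21.8 and 9.82 RPKM, 2.22-fold lower (1.69 to 2.93). Rps12, found by its size outside that list, was at 15.7 and 27.5 RPKM, 1.76-fold higher (1.27 to 2.46). All of them have pseudogene copies, and how reads matching several places were treated is not given, so these values are uncertain. By recovered gene length, 66.4% were lower among 529 members of under 800 bases and 60.4% among 3174 of at least 4000 bases. The part of gene length in the ribosomal values was not tested. In the Hey2 line 20 of the 26 ribosomal members were lower as well (all members: 50.7%), with a median of −0.08.

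Finally, the members were set beside the Hey2 induction, whose libraries share no control with the Hey1 line. Of 10648 members, 10495 had values in both Hey2-line libraries, 49.3% of them higher and 50.7% lower with induction. Of the members at least 1.5-fold lower in the Hey1 line, 221 were listed there, and 130 were lower and 91 higher. Of those at least 1.5-fold higher, 50 were listed, and 21 were higher and 29 lower. In the Hey2 line the interval lay above 1 for 829 of these (7.9%) and below 1 for 694 (6.61%). It lay below 1 in both lines for 153 members and above 1 in both for 95, and off 1 in opposite directions for 149 (lower in the Hey1 line) and 24 (higher in the Hey1 line).

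Of the 19 glycolysis members 13 were lower in the Hey2 line (all members: 50.7%), with a median of −0.12. Some glycolysis genes had an interval below 1 in both lines. Slc16a3 was 2.03-fold lower in the Hey1 line and 1.27-fold lower (1.14 to 1.41) in the Hey2 line, at 39.2 and 30.9 RPKM. Ldha was 1.32-fold and 1.52-fold lower, and Pgk1 1.37-fold and 1.26-fold lower. Egln3, Ddit4 and Bnip3, the hypoxia members with the largest lower differences in the Hey1 line, were within counting error in the Hey2 line. Their Hey2-line ratios were 0.889 (0.642 to 1.24), 1.12 (0.964 to 1.31) and 0.970 (0.661 to 1.44). In the Hey1 line their intervals reached up to 0.462, 0.554 and 0.692, so those of the 2 lines overlapped for Bnip3 and not for Egln3 or Ddit4. These hypoxia genes and the glycolysis genes named before them were picked by their values, so they do not compare the 2 lists. With 1 library in each group the difference between lines has no test.

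**Figure D5:**
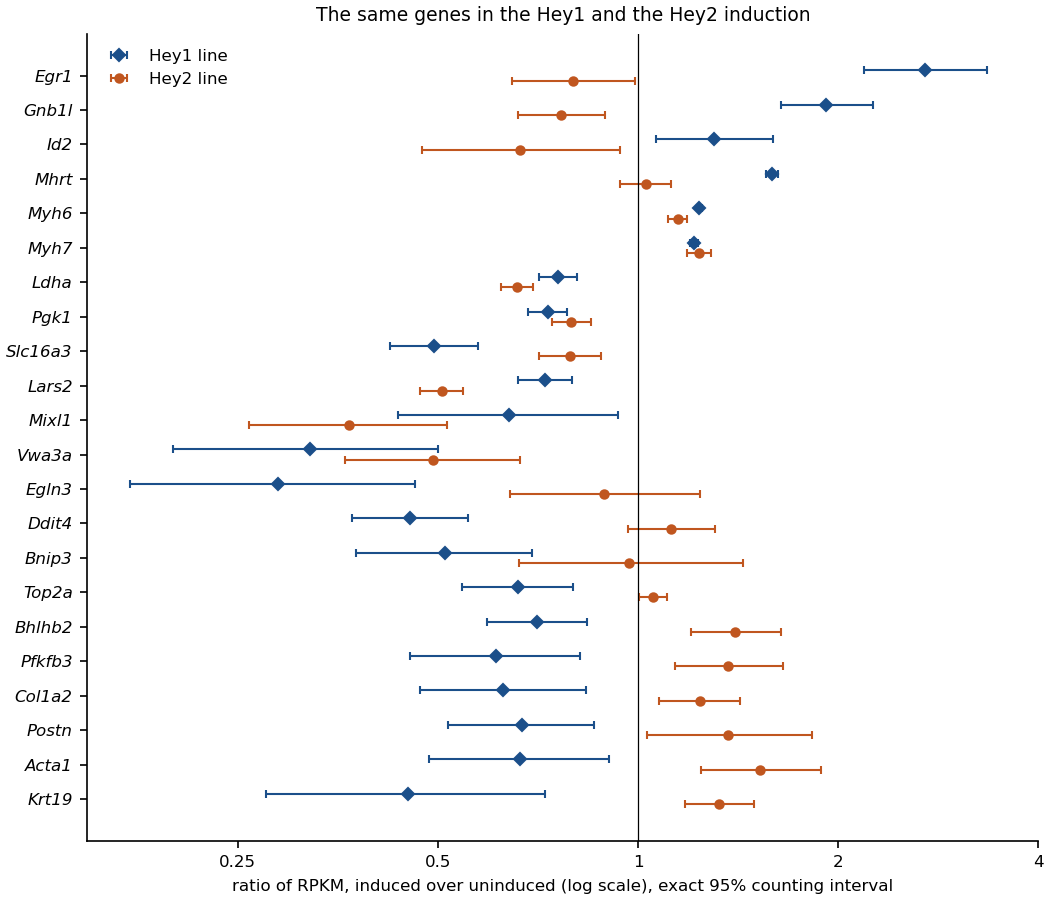
Ratio of RPKM, induced over uninduced (log axis), in the Hey1 line (blue diamonds) and the Hey2 line (orange circles), with exact 95% counting intervals, 1 library a side in each line. Ldha, Pgk1, Slc16a3, Lars2, Mixl1 and Vwa3a lie below 1 in both lines, Egr1, Gnb1l and Id2 lie above 1 in the Hey1 line only, and the lowest 7 genes, from Top2a to Krt19, lie below 1 in the Hey1 line and above 1 in the Hey2 line.

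At the limit of 1 RPKM, the members just inside were Slc44a5 at 1.12 and 0.879 RPKM and Tmem180 at 0.948 and 1.05 RPKM, and the genes just outside were Casp8 at 1.31 and 0.691 RPKM and Timeless at 1.02 and 0.981 RPKM. All 4 rest on 15 to 41 reads a library.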

How the data were processed

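RNA-seq of 4 libraries was used, 1 in each group, and 8 ChIP samples of the series were not analysed here. RPKM values per gene were made and deposited by the authors, and the 2 fold columns that the authors deposited, a signed ratio score of induced to uninduced RPKM, were not used. The submitters' processing notes name Bowtie 1.0, DESeq, MACS 1.4.1 and the build mm9 with no role. Not given in the sources used here are the read counter, the annotation, the strand setting and how reads matching several places were treated.

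Differences are log2(RPKM + 1), induced minus uninduced, which understates the change of low genes. Reads per gene were recovered from the steps of the RPKM values, with divisors of 7400000 and 7500000 reads in the Hey1 line that were fitted and stand in no label. All 15371 genes listed in any library came out whole within 3e-06 of a read plus 1e-09 per read. For 634 genes the fitted length was raised to reach a lower limit of reads assumed from where the numbers of genes step up (10 reads for Hey1-line libraries, 5 for Hey2-line ones), so their reads, and the intervals from them, are inferred. From these reads exact 95% intervals of the ratio (conditional binomial) or of a level (Poisson) were computed. They cover counting error only, and reads without molecular identifiers are not independent molecules. The step was tested on simulated data. With 1 library a group no test between conditions was made and every fold is a description of these libraries.

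Members and the 39 gene lists were chosen with earlier results of these data known. Named genes are the Hey and Hes list, the 15 largest and 15 smallest differences among symbols with an interval off 1 (no microRNA, small nucleolar or clone names), the 10 most abundant, up to 6 genes a list by size and 2 by level, and the genes nearest the limit of 1 RPKM. Other names were chosen after their values were seen. Ribosomal, histone and other genes with near copies are uncertain. Promoters are RefSeq windows of 250 bases before the start on GRCm38.p6, matched by symbol or Entrez number. Python 3.11.15, NumPy 2.4.6, pandas 2.3.3, SciPy 1.17.1 and Matplotlib 3.10.9 were used, and 9 alternatives were tried.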

Additional observations from a re-analysis of the deposited data

Results flagged for a closer look

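For 22 named members the counting intervals lay on opposite sides of 1 in the 2 lines, 18 of them lower in the Hey1 line and 4 higher. Among all 10495 members listed in both Hey2-line libraries, 149 were so placed and lower in the Hey1 line, and 24 higher. Many genes were named because their Hey1-line interval left out 1, so their share is raised by that choice. The 9 given here are those of the 22 named members with a log2 ratio of at least 0.32 in size in both lines. The difference between the lines was not tested, since each group is 1 library. Of the 9, 5 were lower with Hey1 induction and higher with Hey2 induction. The keratin gene Krt19 had an induced over uninduced ratio of 0.452 (0.275 to 0.723) in the Hey1 line and of 1.33 (1.18 to 1.5) in the Hey2 line, where it stood at 49.1 and 65.1 RPKM. Acta1, skeletal actin, had 0.664 (0.485 to 0.903) and 1.52 (1.24 to 1.88). Pfkfb3, the glycolytic regulator, had 0.611 (0.454 to 0.816) and 1.37 (1.14 to 1.65). The matrix gene Postn had 0.668 (0.518 to 0.859) and 1.37 (1.03 to 1.83). The repressor gene Bhlhb2 had 0.706 (0.593 to 0.838) and 1.4 (1.2 to 1.64).

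The opposite pattern, higher with Hey1 and lower with Hey2, was seen for 4. Id2 had a ratio of 1.30 (1.06 to 1.59) in the Hey1 line and of 0.665 (0.472 to 0.939) in the Hey2 line. Gnb1l had 1.92 (1.64 to 2.25) and 0.767 (0.660 to 0.891), and Egr1 had 2.70 (2.19 to 3.35) and 0.799 (0.646 to 0.989). Hey1 itself had 11.7 (6.48 to 23.1) and 0.406 (0.169 to 0.947), the latter from 1.18 and 0.481 RPKM, on only 15 and 11 reads.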

How the results depend on the processing

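No paired analysis was possible because each group is 1 library, and no library could be left out. Counts are of members at least 1.5-fold higher, 1.5-fold lower, 2-fold higher and 2-fold lower, 55, 226, 4 and 13 as reported, with a median of −0.06. With a pseudocount of 0.1 RPKM they were 137, 549, 18 and 61 (median −0.070), and with 5 RPKM 10, 34, 1 and 3 (median −0.035). A mean of at least 5 RPKM gave 24, 103, 1 and 8 (median −0.049, 5727 members), and at least 50 reads in each library 20, 84, 1 and 4 (median −0.052, 8125 members). Blanks read as 0 gave 26 and 38 at 2-fold. The median was −3.38e-06 with median ratio scaling and −0.0071 with upper quartile scaling. The 1.5-fold and 2-fold counts with these scalings, without a filter and with values needed in all 4 libraries stayed within 1.5 times, and lower members outnumbered higher ones at 1.5-fold under all 9 alternatives. Of 221 named genes, 30 moved beyond their counting interval with median ratio scaling, 24 with upper quartile scaling, 12 with a pseudocount of 5 and 8 with one of 0.1. Depth limits genes of under 60 reads, whose log2 ratios had a standard deviation of 0.49 where counting gives 0.46.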

Other observations

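Of 18 cholesterol synthesis members 15 were lower with Hey1 induction (all members: 60.9%), with a median of −0.11, and 2 intervals lay below 1, a share under that of all members (13.7%). Of 7 interferon response members 6 were lower in the Hey1 line (all members: 60.9%), with a median of −0.25. The interval lay below 1 for 1 of the 7 (all members: 13.7%). In the Hey2 line 7 of 7 were higher (all members: 49.3%), with a median of 0.20. Of 21 unfolded protein and heat shock members 13 were lower (all members: 60.9%) and 8 higher. Their interval lay below 1 for 8 and above 1 for 5 (all members: 13.7% and 5.13%). These shares were 21.0% and 10.3% among members with 600 to under 2000 reads, and 27.0% and 26.7% with at least 2000. Of 20 mitochondrial stress and translation members 10 were higher and 10 lower (all members: 60.9% lower). Lars2, the mitochondrial leucyl-tRNA synthetase, was at 36.8 and 26.7 RPKM in the Hey1 line, 1.38-fold lower (1.26 to 1.52), and 1.97-fold lower (1.83 to 2.12) in the Hey2 line.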
